A study of Homo sapiens with 16 samples.

Results

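The 6 genes described here code for the cellular inhibitor of apoptosis proteins cIAP1 (BIRC2) and cIAP2 (BIRC3), the X-linked inhibitor XIAP, the mitochondrial IAP antagonist Smac (DIABLO), the adaptor TRAF2 and the deubiquitinase CYLD. They were chosen by name as the core of 1 pathway, with earlier results of these data known. Shares of members or listed genes set beside all genes are therefore a description. All 6 were found among the 20612 genes of the expression table. HCT116 is an established colorectal cancer cell line, used here as an isogenic pair that is either p53+/+ or p53-/-. Cells of each genotype received DMSO (the vehicle control), Nutlin-3A at 5 µM, Entinostat at 2.5 µM or the combination of both agents for 8 h, which gave 8 groups of 2 replicates and 16 mRNA-seq libraries. The labels give the doses for the single agents alone, and the sources used here do not say whether each genotype is 1 clone. Nutlin-3A blocks the binding of MDM2 to p53, and Entinostat inhibits class I histone deacetylases.

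At the receptor for tumour necrosis factor, TRAF2 recruits cIAP1 and cIAP2, which attach ubiquitin chains to RIPK1 and so hold a signalling platform for NF-kB in place. CYLD removes such chains, and without them a complex of FADD, caspase 8 and FLIP can form, in which FLIP decides whether caspase 8 starts apoptosis. TRAF2, TRAF3 and the cIAPs also keep the kinase NIK (MAP3K14) low in unstimulated cells, which restrains the noncanonical NF-kB pathway. XIAP acts further down, by binding caspases directly, and Smac released from mitochondria displaces them. BIRC3 is a known NF-kB target gene and lies next to its paralog BIRC2 on chromosome 11.

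The sequences upstream of BIRC3, BIRC2 and CYLD are shown because BIRC3 and CYLD rose under Entinostat in both genotypes, and BIRC2 is the neighbour of BIRC3. Each stretch covers 200 bases, ending 51 bases before the annotated start site, from RefSeq promoter windows on GRCh38.p14. Capitals mark matches to the NF-kB consensus, which all read on the opposite strand. All 6 genes had at least 1 window, 14 in all, and windows of 1 gene can overlap.
BIRC3, chr11:102317234-102317433, plus strand: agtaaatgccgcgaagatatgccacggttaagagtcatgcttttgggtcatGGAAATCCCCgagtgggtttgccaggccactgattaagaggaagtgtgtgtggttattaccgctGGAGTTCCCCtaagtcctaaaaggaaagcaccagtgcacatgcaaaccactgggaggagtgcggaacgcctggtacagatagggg
BIRC2, chr11:102346964-102347163, plus strand: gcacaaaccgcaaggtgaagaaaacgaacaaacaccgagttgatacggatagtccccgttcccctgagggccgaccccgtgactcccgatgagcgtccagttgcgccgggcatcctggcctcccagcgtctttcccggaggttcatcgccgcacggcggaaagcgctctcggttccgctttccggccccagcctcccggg
CYLD, chr16:50741836-50742035, plus strand: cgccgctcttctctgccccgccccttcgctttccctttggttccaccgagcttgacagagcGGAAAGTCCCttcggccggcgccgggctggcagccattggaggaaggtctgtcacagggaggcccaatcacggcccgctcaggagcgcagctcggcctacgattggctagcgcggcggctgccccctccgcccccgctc
The 1 window of BIRC3 held 2 NF-kB matches, 199 to 190 and 135 to 126 bases before the start. The match of CYLD stood 189 to 180 bases before its start, in 1 of its 3 windows. The consensus was thus found in 2 of the 14 windows, and BIRC2, XIAP, DIABLO and TRAF2 had none. Among all 35116 windows of 250 bases, searched on both strands, 9.96% held the NF-kB consensus and 1.72% held 2 or more matches. The p53 decamer (5.57% of all windows) and the AP-1 motif TGANTCA (6.57%) were found in 0 of the 14 windows. The GC box GGGCGG stood in 11 of the 14 windows, against 42.6% of all windows, and the window of BIRC3 had none. Overlapping windows of XIAP, and of CYLD, held some of the same GC boxes. The 14 windows had 44.8% to 82% GC, against a median of 58% over all windows, and were not compared with windows of like GC content. The CRE motif TGACGTCA was found in 2 of the 14 windows, 1 of BIRC2 and 1 of CYLD, against 1.65% of all. A match describes the letters in these windows and not a bound site, and the absence of one says nothing about the factor.

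The labels were first checked on genes outside the set. CDKN1A and MDM2, known target genes of p53, reached 1069 and 406 RPKM (reads per kilobase of gene, scaled to the mapped reads of the library) in p53+/+ libraries, and at most 100.2 and 22.1 RPKM in p53-/- libraries. Both p53+/+ maxima came from the combination. Without Nutlin-3A the genotypes stood closer. With Entinostat, CDKN1A was 121 and 104 RPKM in p53+/+ and 91.0 and 49.9 RPKM in p53-/- cells. MDM2 was 16.5 and 18.8 RPKM in p53+/+ and 13.6 and 15.1 RPKM in p53-/- cells. The epithelial markers EPCAM, KRT8, KRT18, KRT19, CDH1 and CDX2 were expressed in all 16 libraries, with EPCAM at 126 RPKM or more. VIL1 and CEACAM5, markers of intestinal epithelium, were at most 0.0475 RPKM. PTPRC, CD3E, PECAM1 and COL3A1, which mark leukocytes, T cells, endothelium and fibroblasts, were at most 0.0434 RPKM, whereas CD68 (3.40 to 7.33 RPKM) and COL1A1 (2.00 to 5.80 RPKM) were present throughout. The deposited values come with 45902800 to 55507300 alignments per library. Fewer cells and less RNA per cell cannot be told apart in such bulk libraries. Nothing in the labels ties replicates to separate cultures. The p-values therefore measure the spread between these libraries, which may be technical.

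DIABLO was the most abundant of the 6 genes on the RPKM scale, which corrects for gene length, and it varied least. Its levels ran from 14.2 to 18.0 RPKM over the 16 libraries, a 1.27-fold range. TRAF2 (7.95 to 16.7 RPKM) and BIRC2 (8.85 to 14.7 RPKM) came next. XIAP lay between 1.48 and 4.90 RPKM and CYLD between 1.51 and 2.53 RPKM. BIRC3 was the scarcest in the DMSO controls and the most variable, from 0.275 to 3.17 RPKM, an 11.5-fold range. The RPKM steps allowed the underlying fragments to be recovered within 0.1 of a whole number for 762 of 924 low genes (82.5%). These low genes had a mean of at least 0.5 and under 1 RPKM, so the 6 genes were not among them. For BIRC3 the steps gave 46 fragments in the lowest library and 553 in the highest, with counting errors of 14.7% and 4.25%. BIRC2 and BIRC3 lay up to 0.087 and 0.086 from whole numbers, near the limit of 0.1, and the others at most 0.017. The other 5 genes had at least 304 fragments in every library. Fragments of BIRC2 and BIRC3 that fit both paralogs could have been shared between them in counting, and these errors cover counting only.

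**Figure D1:**
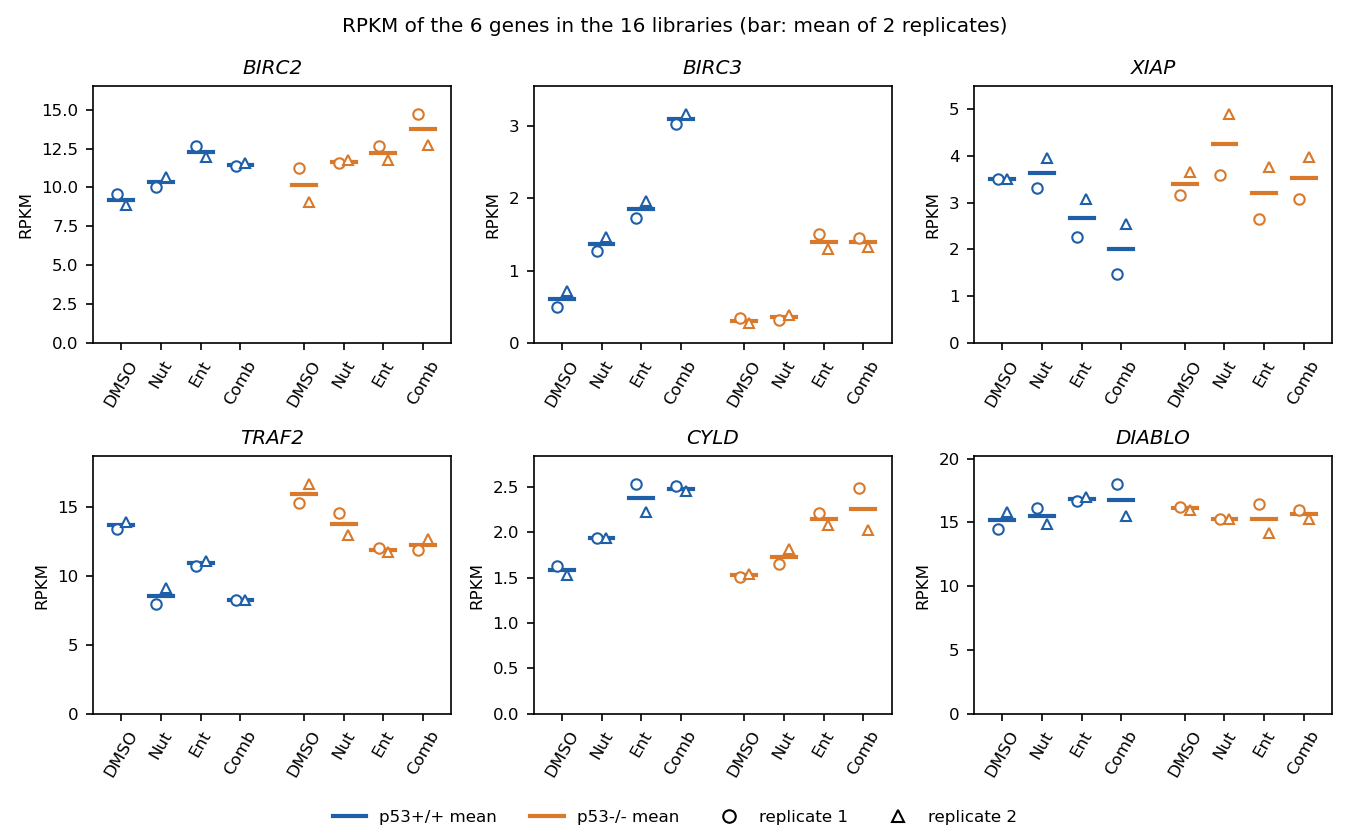
RPKM (vertical axes, starting at 0) of each of the 6 genes in the 16 libraries, with circles for replicate 1, triangles for replicate 2 and bars for the mean of 2 replicates, in blue for p53+/+ and orange for p53-/- cells. BIRC3 is highest in the p53+/+ combination libraries (3.02 and 3.17 RPKM), TRAF2 is lowest in the p53+/+ Nutlin-3A and combination libraries, and DIABLO stays between 14.2 and 18.0 RPKM.

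Differences were tested with limma on log2(RPKM + 0.5) over the 12466 genes with a mean of at least 0.5 RPKM, and a gene was called at a Benjamini-Hochberg adjusted p under 0.05. All 6 genes passed the filter, BIRC3 on its mean of 1.30 RPKM over all libraries, since its DMSO and Nutlin-3A means in p53-/- cells lie under 0.5 RPKM. In p53+/+ cells Nutlin-3A changed 2 of the 6 genes, where 17.4% of all tested genes were called: BIRC3 rose and TRAF2 fell. Entinostat changed 4 of 6 (27.5% of all genes), with BIRC2, BIRC3 and CYLD higher and TRAF2 lower. The combination changed 5 of 6 (50.0% of all genes), the same 4 with XIAP added on the lower side.

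In p53-/- cells Nutlin-3A changed 0 of the 6 genes and 0 of all tested genes (0%) by limma, with 1 of the 6 and 440 of all genes at an unadjusted p under 0.05. Entinostat changed 3 of 6 (28.2% of all genes), with BIRC3 and CYLD higher and TRAF2 lower. The combination changed 4 of 6 (31.8%), with BIRC2, BIRC3 and CYLD higher and TRAF2 lower. Against Entinostat alone, the combination changed 0 of 6 and 0 of all genes (0%) in p53-/- cells, with 0 of the 6 at an unadjusted p under 0.05. The comparisons with DMSO within a genotype share their control libraries.

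**Figure D2:**
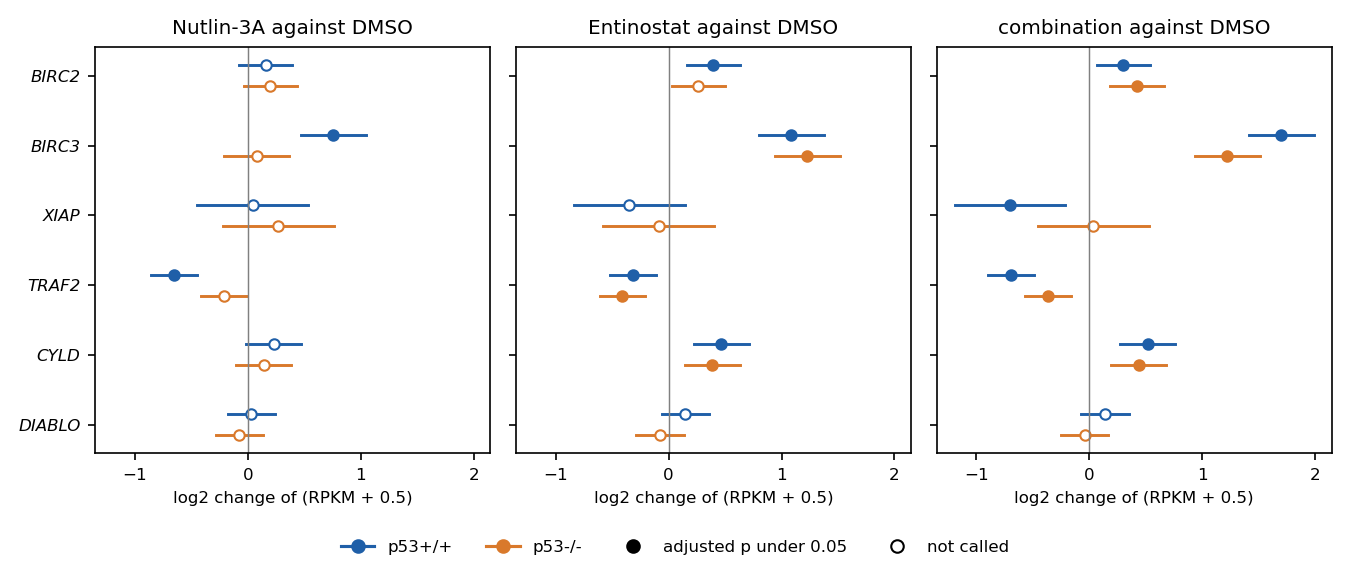
Log2 change of (RPKM + 0.5) against DMSO (horizontal axes) of the 6 genes under Nutlin-3A, Entinostat and the combination, with 95% confidence intervals, in blue for p53+/+ and orange for p53-/- cells; filled points are called at an adjusted p under 0.05 by limma. BIRC3 stands at 1.70 under the combination in p53+/+ cells and at 1.22 in p53-/- cells, while the intervals of DIABLO span 0 in every panel.

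BIRC3 codes for cIAP2, the ubiquitin ligase that can stand in for cIAP1. In p53+/+ cells it measured 0.506 and 0.718 RPKM under DMSO, 1.27 and 1.47 RPKM under Nutlin-3A, 1.74 and 1.97 RPKM under Entinostat, and 3.02 and 3.17 RPKM under the combination. The 4 groups did not overlap and stood in that order. The p53-/- libraries held 0.348 and 0.275 RPKM under DMSO, 0.322 and 0.391 RPKM under Nutlin-3A, 1.51 and 1.30 RPKM under Entinostat, and 1.46 and 1.32 RPKM under the combination. There the DMSO and Nutlin-3A libraries overlapped, and so did the Entinostat and combination libraries, with a wide gap between both pairs. Mean BIRC3 levels were thus 2.24-fold higher with Nutlin-3A than with DMSO in p53+/+ cells (log2 change 0.76, SE 0.13, limma adjusted p = 0.0020). The ratio was 3.03 with Entinostat (log2 change 1.09, SE 0.13, limma adjusted p = 0.00059) and 5.07 with the combination (log2 change 1.70, SE 0.13, limma adjusted p = 8.2e-06). The ratio for p53-/- cells was 1.14 with Nutlin-3A (log2 change 0.08, 95% interval -0.21 to 0.37, not called), 4.50 with Entinostat (log2 change 1.23, limma adjusted p = 0.00043) and 4.47 with the combination (log2 change 1.22, limma adjusted p = 0.00031). These log2 changes understate the change of so scarce a gene, because 0.5 was added to each value.

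Set against the single agents in p53+/+ cells, where the combination changed 2 of the 6 genes in each case (34.7% of all genes called against Nutlin-3A and 14.8% against Entinostat), BIRC3 was 2.26-fold higher in the combination than with Nutlin-3A (log2 change 0.95, limma adjusted p = 0.00074). It was 1.67-fold higher than with Entinostat (log2 change 0.61, limma adjusted p = 0.0092). The call against Entinostat was lost without Entinostat replicate 1 of p53+/+ cells (limma adjusted p = 0.070). In p53-/- cells, where the combination changed 1 of the 6 genes against Nutlin-3A (23.4% of all genes called), that 1 gene was BIRC3, 3.90-fold higher (log2 change 1.14, limma adjusted p = 0.00057).

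Between the genotypes, the BIRC3 libraries of p53-/- cells lay below those of p53+/+ cells in every treatment. BIRC3 was called lower in p53-/- cells wherever Nutlin-3A was present. With Nutlin-3A alone, where 2 of the 6 genes and 34.4% of all genes differed, it was 3.84-fold lower (log2 difference -1.13, limma adjusted p = 6.0e-05). With the combination, where 3 of 6 and 36.3% of all genes differed, it was 2.23-fold lower (log2 difference -0.93, limma adjusted p = 0.00035). Under DMSO, 0 of the 6 genes were called by limma (4.69% of all genes), with 2 at an unadjusted p under 0.05. BIRC3 there was 1.96-fold lower, with a log2 difference of -0.45 (limma adjusted p = 0.083). This difference was called under a block, a fit with a term for the replicate number (limma adjusted p = 0.032). It was also called with 0.1 in place of the added 0.5. Under Entinostat 0 of 6 were called by limma (3.76% of all genes), with 1 at an unadjusted p under 0.05. BIRC3 was 1.32-fold lower there, by -0.31 on the log2 scale (95% interval -0.59 to -0.02, limma adjusted p = 0.26).

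BIRC2 codes for cIAP1, the partner of TRAF2 that most cells express without stimulation. In p53+/+ cells it measured 9.60 and 8.85 RPKM under DMSO, 10.0 and 10.6 RPKM under Nutlin-3A, 12.7 and 11.96 RPKM under Entinostat, and 11.4 and 11.6 RPKM under the combination. Every treated library stood above both DMSO libraries. The p53-/- libraries gave 11.3 and 9.04 RPKM under DMSO, 11.6 and 11.8 RPKM under Nutlin-3A, 12.7 and 11.8 RPKM under Entinostat, and 14.7 and 12.7 RPKM under the combination. The DMSO replicates of p53-/- cells lay far apart, and all treated libraries exceeded the higher one. BIRC2 rose with Entinostat in p53+/+ cells (1.33-fold, log2 change 0.40, SE 0.11, limma adjusted p = 0.019) and with the combination in both genotypes, by 0.30 (limma adjusted p = 0.036) and 0.42 (limma adjusted p = 0.012) on the log2 scale. Its log2 change with Entinostat in p53-/- cells, 0.26, missed the threshold (limma adjusted p = 0.089) but passed under the replicate block (limma adjusted p = 0.032), and it lay between 0.11 and 0.41 over the libraries left out. Between the genotypes under the combination, BIRC2 had a log2 difference of 0.25 (limma adjusted p 0.094 without and 0.037 with the block; 0.14 to 0.35 over the libraries left out). The call for the combination in p53+/+ cells was lost when any 1 of its 4 libraries was left out, with adjusted p between 0.059 and 0.19. Without p53-/- DMSO replicate 2 or combination replicate 1, the call in p53-/- cells was lost as well, and the log2 change lay between 0.27 and 0.57 over the libraries left out. Under Entinostat in p53+/+ cells it was lost without Entinostat replicate 1 or DMSO replicate 2.

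XIAP, the direct caspase inhibitor, fell under the p53+/+ combination, in which both cIAP genes rose. In p53+/+ cells it measured 3.49 and 3.50 RPKM under DMSO, 3.31 and 3.95 RPKM under Nutlin-3A, 2.26 and 3.07 RPKM under Entinostat, and 1.48 and 2.54 RPKM under the combination. Both Entinostat and both combination libraries were below the DMSO libraries, with a wide gap between replicates. The p53-/- libraries gave 3.15 and 3.65 RPKM under DMSO, 3.58 and 4.90 RPKM under Nutlin-3A, 2.65 and 3.76 RPKM under Entinostat, and 3.07 and 3.97 RPKM under the combination. There all 4 groups overlapped. XIAP fell in p53+/+ cells under the combination, to a ratio of 0.575 of its DMSO mean (log2 change -0.70, SE 0.23, limma adjusted p = 0.021). The combination was also lower than Nutlin-3A alone (log2 change -0.75, limma adjusted p = 0.024), and 1.75-fold higher levels were found under the combination in p53-/- than in p53+/+ cells (log2 difference 0.70, limma adjusted p = 0.029). With the replicate block these calls remained, with an SE of 0.12 (limma adjusted p = 0.00027, 0.00032 and 0.00040).

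Replicate 2 of XIAP exceeded replicate 1 in 8 of 8 groups, by a median of 0.40 on the log2 scale in the 4 groups with Entinostat and 0.20 in the other 4. The median absolute replicate difference over all genes in the Entinostat groups was 0.16. Under the replicate block, XIAP was also called for Entinostat against DMSO (log2 change -0.35, limma adjusted p 0.27 without and 0.033 with the block) and for the combination against Entinostat (log2 change -0.35, limma adjusted p 0.33 without and 0.042 with the block), both in p53+/+ cells. The fits with libraries left out had no block. Over them, these changes ranged from -0.54 to -0.16 and from -0.66 to -0.05. The call for the combination against DMSO was lost without DMSO replicate 1, DMSO replicate 2 or combination replicate 1, and the log2 change ranged from -1.01 to -0.40 over the libraries left out. Against Nutlin-3A the range was -1.05 to -0.44, and the call was lost without either Nutlin-3A replicate or combination replicate 1. The genotype difference under the combination ranged from 0.39 to 1.01, and its call was lost without p53+/+ combination replicate 1 or p53-/- combination replicate 2.

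**Figure D3:**
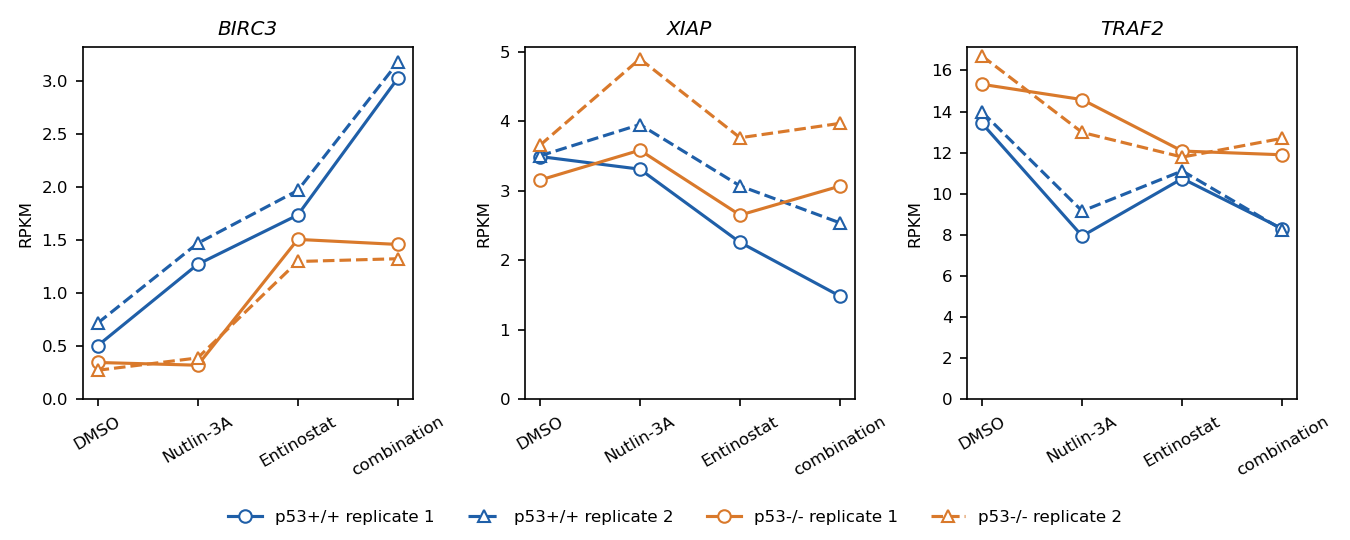
RPKM (vertical axes, starting at 0) of BIRC3, XIAP and TRAF2 in the 4 treatments, with lines joining the libraries of 1 genotype and 1 replicate number (solid and circles for replicate 1, dashed and triangles for replicate 2; blue for p53+/+, orange for p53-/- cells). XIAP replicate 2 lies above replicate 1 in all 8 groups, whereas for BIRC3 and TRAF2 it does so in 5 of 8 groups each.

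DIABLO, which codes for Smac, was not called in any of the 19 comparisons. In p53+/+ cells it measured 14.5 and 15.8 RPKM under DMSO, 16.2 and 14.9 RPKM under Nutlin-3A, 16.7 and 17.0 RPKM under Entinostat, and 18.0 and 15.5 RPKM under the combination. The p53-/- libraries gave 16.2 and 16.01 RPKM under DMSO, 15.3 and 15.3 RPKM under Nutlin-3A, 16.4 and 14.2 RPKM under Entinostat, and 15.97 and 15.3 RPKM under the combination. Most groups overlapped with one another, and both Entinostat libraries of p53+/+ cells stood above both DMSO libraries. The log2 change with Entinostat in p53+/+ cells was 0.15 (95% interval -0.06 to 0.36), and with the combination it was 0.14 (95% interval -0.07 to 0.35). These intervals still hold the change called for BIRC2 under the combination in the same cells.

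TRAF2, the adaptor that brings the cIAPs to the receptor, fell wherever a drug changed it. In p53+/+ cells it measured 13.4 and 13.98 RPKM under DMSO, 7.95 and 9.16 RPKM under Nutlin-3A, 10.7 and 11.1 RPKM under Entinostat, and 8.30 and 8.25 RPKM under the combination. All treated libraries were below the controls, the Entinostat libraries least so, and the combination lay within the range of Nutlin-3A. The p53-/- libraries gave 15.3 and 16.7 RPKM under DMSO, 14.6 and 12.99 RPKM under Nutlin-3A, 12.1 and 11.8 RPKM under Entinostat, and 11.9 and 12.7 RPKM under the combination. Entinostat and the combination overlapped there, and all treated libraries were again below the controls. The log2 change in p53+/+ cells was -0.65 with Nutlin-3A (SE 0.09, limma adjusted p = 0.00046), -0.31 with Entinostat (limma adjusted p = 0.026) and -0.69 with the combination (limma adjusted p = 0.00015). For p53-/- cells it was -0.41 with Entinostat (limma adjusted p = 0.0080) and -0.37 with the combination (limma adjusted p = 0.011), and -0.21 with Nutlin-3A (95% interval -0.41 to -0.01, unadjusted p = 0.042, limma adjusted p = 0.96).

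The combination differed from Entinostat in TRAF2 in p53+/+ cells (log2 change -0.38, limma adjusted p = 0.017) and not detectably from Nutlin-3A (log2 change -0.04, 95% interval -0.24 to 0.16). TRAF2 was 1.61-fold higher in p53-/- than in p53+/+ cells under Nutlin-3A (log2 difference 0.66, limma adjusted p = 0.00022) and 1.49-fold higher under the combination (log2 difference 0.54, limma adjusted p = 0.0010). Under DMSO the log2 difference was 0.22 (95% interval 0.02 to 0.42, limma adjusted p = 0.26). The call for Entinostat in p53+/+ cells was lost when any 1 of its 4 libraries was left out, and that for the combination against Entinostat was lost without either Entinostat replicate or combination replicate 1. In p53-/- cells, leaving out DMSO replicate 2 ended both calls, and so did leaving out Entinostat replicate 1 and combination replicate 1, each for its own comparison.

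CYLD, the deubiquitinase that removes the chains built by the cIAPs, was called higher with Entinostat in both genotypes. In p53+/+ cells it measured 1.63 and 1.53 RPKM under DMSO, 1.94 and 1.94 RPKM under Nutlin-3A, 2.53 and 2.23 RPKM under Entinostat, and 2.51 and 2.45 RPKM under the combination. The p53-/- libraries gave 1.51 and 1.54 RPKM under DMSO, 1.65 and 1.81 RPKM under Nutlin-3A, 2.22 and 2.08 RPKM under Entinostat, and 2.48 and 2.02 RPKM under the combination. The libraries with Entinostat exceeded those without it in each genotype, with no overlap. CYLD rose with Entinostat by 0.47 (limma adjusted p = 0.011) in p53+/+ and 0.39 (limma adjusted p = 0.023) in p53-/- cells on the log2 scale. With the combination it rose by 0.52 (limma adjusted p = 0.0026) and 0.44 (limma adjusted p = 0.012). All 4 calls were lost under quantile normalization. Under the replicate block, the combination was also called against Nutlin-3A in p53+/+ cells (log2 change 0.29, limma adjusted p 0.062 without and 0.028 with the block) and in p53-/- cells (log2 change 0.30, limma adjusted p 0.072 without and 0.030 with the block). The p53+/+ call for Entinostat needed Entinostat replicate 1 and DMSO replicate 2, and that of p53-/- cells was lost when any 1 of its 4 libraries was left out. The p53-/- call for the combination was lost without either DMSO replicate or combination replicate 1.

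Whether a drug acted differently in the genotypes was tested as the p53+/+ change minus the p53-/- change. For Nutlin-3A 0 of the 6 genes were called by limma (6.78% of all genes), with 2 at an unadjusted p under 0.05. BIRC3 changed by 0.68 more in p53+/+ cells on the log2 scale (SE 0.19, limma adjusted p = 0.051), and TRAF2 by -0.44 (SE 0.13, limma adjusted p = 0.067). Under the replicate block both were called (limma adjusted p = 0.019 and 0.022), as were 17.1% of all genes. For Entinostat 0 of 6 and 0% of all genes were called by limma, with 0 of the 6 at an unadjusted p under 0.05. BIRC3 differed there by -0.14 (95% interval -0.55 to 0.27), a value on which the added 0.5 weighs. Its ratios of mean RPKM to DMSO with Entinostat were 3.03 in p53+/+ and 4.50 in p53-/- cells. For the combination 0 of 6 were called by limma (5.78% of all genes), with 3 at an unadjusted p under 0.05: XIAP at -0.74, BIRC3 at 0.48 and TRAF2 at -0.33 on the log2 scale. XIAP alone passed with the block (limma adjusted p = 0.0096), where 23.8% of all genes did.

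The combination was also set against the sum of the log2 changes of both agents. Neither genotype had a departure called by limma in any of the 6 genes or in any tested gene (0% in both), and 0 of the 6 were at an unadjusted p under 0.05. For BIRC3 in p53+/+ cells the departure was -0.14 (95% interval -0.55 to 0.27). XIAP in the same cells had -0.40 (95% interval -1.09 to 0.30) and TRAF2 had 0.27 (95% interval -0.01 to 0.56). On this log2 scale, departures of the size of the single-agent changes of BIRC3 would lie outside its interval, which is not so for XIAP. The 0.5 added to each value weighs on the departure of BIRC3 too. In p53+/+ cells its ratios of mean RPKM to DMSO were 2.24 with Nutlin-3A, 3.03 with Entinostat and 5.07 with the combination.

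The summed level of the 3 inhibitors lay between 12.97 and 19.3 RPKM over all libraries. BIRC3 stood at 5.26% and 8.11% of BIRC2 in the p53+/+ DMSO libraries and at 26.6% and 27.4% in the combination libraries. In p53-/- cells the same shares were 3.10% and 3.04% under DMSO and 9.90% and 10.4% under the combination. BIRC2 thus remained several times as abundant as BIRC3 in every library. XIAP was 24.1% and 22.2% of DIABLO in p53+/+ DMSO libraries and 8.24% and 16.4% in combination libraries. These are ratios of mRNA levels per length and say nothing of protein amounts.

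Around the 6 genes, 54 further genes of the pathway were listed in 7 groups. Of these, 48 were tested, 5 were under the filter (BIRC7, XAF1, TRAF1, CASP10 and TNFRSF1B) and RIPK3 was not analysed here. In p53+/+ cells Nutlin-3A called 5 of the 48 (10.4%, against 17.4% of all tested genes), 3 higher and 2 lower. Entinostat called 13 (27.1%, against 27.5%), 4 higher and 9 lower, and the combination called 21 (43.8%, against 50.0%), 5 higher and 16 lower. These shares of the 48 were near or below those of all genes. With the replicate block Nutlin-3A called 11 of the 48 and 3931 of all 12466 genes, and Entinostat called 22 of the 48 and 5565 of all genes. In p53-/- cells Nutlin-3A called 0 by limma (3 at an unadjusted p under 0.05), Entinostat 19 (39.6%, against 28.2% of all genes), 5 higher and 14 lower, and the combination 22 (45.8%, against 31.8%), 6 higher and 16 lower. The median log2 change of the 48 genes was -0.17 under the combination in p53+/+ cells and -0.19 in p53-/- cells, against -0.03 and 0.03 over all tested genes.

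Receptors and transcription factors of the NF-kB pathways were among the genes that fell. LTBR, the lymphotoxin beta receptor, fell with Entinostat from a mean of 32.8 to 10.4 RPKM in p53+/+ cells (log2 change -1.64, limma adjusted p = 0.00073) and by 1.66 on the log2 scale in p53-/- cells. Of all tested genes, 12.4% (p53+/+) and 13.3% (p53-/-) fell with Entinostat, and 26.8% fell with the combination in p53+/+ cells. In the noncanonical group of 7, 3 genes fell with Entinostat in each genotype: LTBR, RELB and TRAF3, the adaptor that holds NIK for degradation. Under the combination in p53+/+ cells 4 of the 7 fell and 1, CD40, rose by 0.32. Of the 7 core NF-kB genes, 2 fell with Entinostat in p53+/+ cells, NFKB1 (log2 change -0.95) and its inhibitor NFKBIA (log2 change -0.73), and 0 rose. In p53-/- cells both fell too, with NFKBIB. The median of the core group under Entinostat was -0.34 in p53+/+ and -0.46 in p53-/- cells, against 0.01 and 0.02 over all tested genes.

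Another list held the receptor complex and the cell death complexes that can follow it. Of its 8 tested genes, 4 fell with Entinostat in p53+/+ cells, where 12.4% of all genes did. They were MLKL (log2 change -1.08, SE 0.37, limma adjusted p = 0.047), CFLAR (-0.83), TNFRSF1A (-0.60) and TRADD (-0.34). For p53-/- cells 2 of 8 fell (13.3% of all genes), TNFRSF1A (-0.64) and CFLAR (-0.62). CFLAR, which codes for FLIP, rose with Nutlin-3A in p53+/+ cells, from 2.01 to 3.92 RPKM (log2 change 0.82, limma adjusted p = 0.0052). Its change under the combination was -0.29 (limma adjusted p = 0.17). TAB3, a subunit of the TAK1 kinase complex, rose 2.38-fold with Nutlin-3A in p53+/+ cells, and TNIP1, a partner of A20, had a log2 change of 0.69. Both TAB3 (0.97, limma adjusted p = 0.0037) and TNIP1 (0.76, limma adjusted p = 0.0036) changed more in p53+/+ than in p53-/- cells by the test of the difference. Among the deubiquitinases, TNFAIP3, which codes for A20, rose with Entinostat (log2 change 0.51) and the combination (log2 change 0.87) in p53+/+ cells, as did USP2 (0.95 and 1.09). In the same list of 10, 0 fell with Entinostat in p53+/+ cells. With the combination 2 fell there, OTULIN (-0.29) and RNF31 (-0.40), a subunit of the linear ubiquitin ligase. Of all tested genes in p53+/+ cells, 15.1% rose and 12.4% fell with Entinostat, and 23.2% rose and 26.8% fell with the combination. With Entinostat in p53-/- cells 1 rose, USP2 (0.84), and 3 fell, RNF31 (-0.41), RBCK1 (-0.35) and TNIP1 (-0.27). There 15% of all tested genes rose and 13.3% fell.

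Among the other IAP family genes, BIRC5, which codes for survivin, fell with Nutlin-3A from 87.0 to 37.9 RPKM (log2 change -1.20, limma adjusted p = 2.3e-05) and with the combination to 33.1 RPKM in p53+/+ cells. It fell in p53-/- cells too, by 0.37 with Entinostat (limma adjusted p = 0.026) and by 0.43 with the combination (limma adjusted p = 0.011) on the log2 scale. The genotype difference in its response was -1.18 for Nutlin-3A (limma adjusted p = 0.00090) and -0.95 for the combination (limma adjusted p = 0.0078). NAIP rose with Entinostat in p53+/+ (log2 change 0.40) and p53-/- cells (log2 change 0.60). Of the IAP antagonists and caspases, SEPT4, whose ARTS isoform binds XIAP, rose with Entinostat in p53+/+ (log2 change 1.70) and p53-/- cells (log2 change 1.43). HTRA2, a mitochondrial protease that binds IAPs, fell with Nutlin-3A (log2 change -0.31) and the combination (-0.30) in p53+/+ cells, and with Entinostat (-0.31) and the combination (-0.34) in p53-/- cells.

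**Figure D4:**
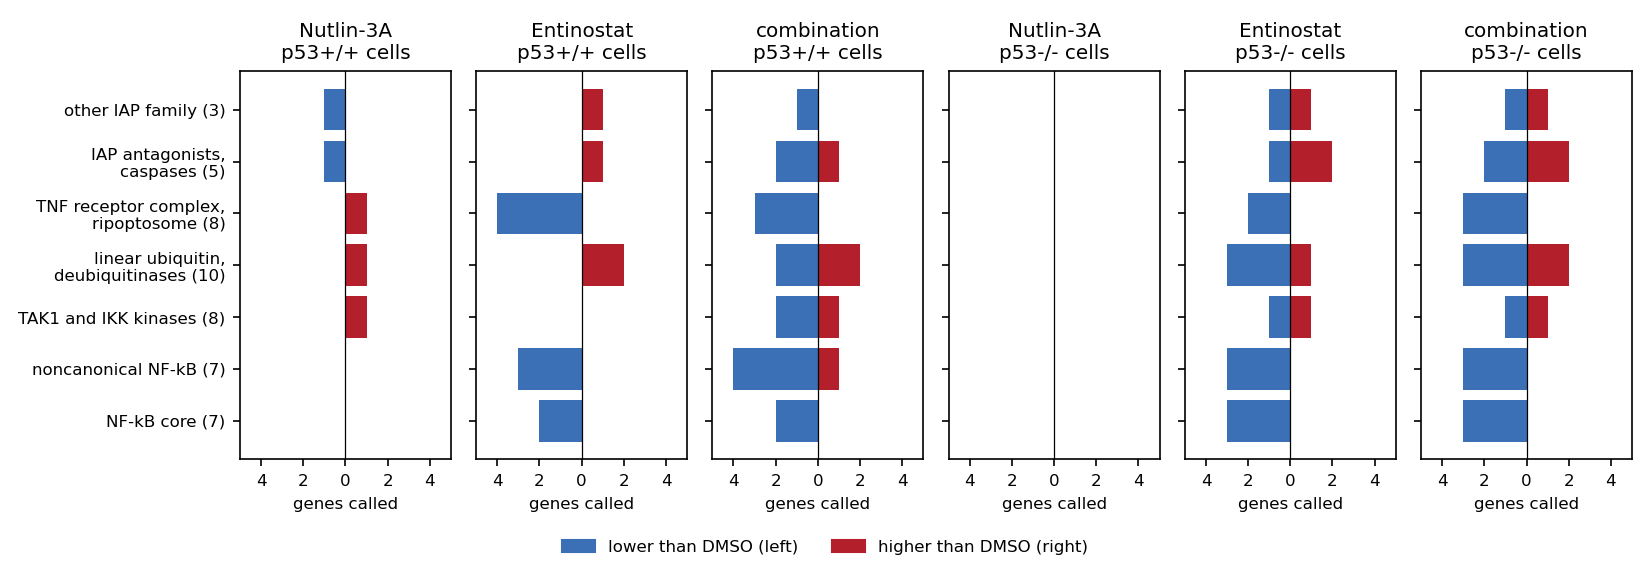
Number of genes called against DMSO at an adjusted p under 0.05 (horizontal axes), lower to the left in blue and higher to the right in red, for each of 7 pathway groups (tested genes in parentheses), in p53+/+ cells (first 3 panels) and p53-/- cells (last 3). The Nutlin-3A panel of p53-/- cells is empty. The TNF receptor complex, noncanonical NF-kB and core NF-kB rows extend to the left in all 4 panels with Entinostat. The noncanonical row also has 1 gene to the right under the p53+/+ combination.

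The genes whose log2 levels followed each member most closely over the 16 libraries were taken from 11512 tested genes with a mean of at least 1 RPKM. They are a description, since all points share libraries, treatments and genotypes. MANBA, NEAT1 and EPPK1 followed BIRC3 with a Pearson r of 0.98 each. TAOK1 (0.98), OTUD6B (0.98) and SREK1 (0.97) followed XIAP. GTPBP2, RASSF1 and PKMYT1 followed TRAF2, and TGFBR3, ZFAND5 and ELL2 followed CYLD, all with an r of 0.97. The nearest genes to BIRC2 were PPP1R2 (0.92), TC2N (0.91) and STAM2 (0.91), and those to the little-varying DIABLO, SUGP1 (0.84), ZFAND3 (0.80) and NDUFA8 (0.80), were the least like. Within the set, BIRC3 ran with CYLD (r = 0.89) and against TRAF2 (r = -0.83) over the same libraries.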

How the data were processed

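Messenger RNA of 16 HCT116 libraries was measured by sequencing, and the authors deposited 1 table of RPKM values per gene with the alignments per library. Per the submitters' processing notes, Bowtie2, Partek and the hg19 build were used. The sources used here do not give tool versions, the annotation or any strand setting, so reads of overlapping or antisense genes may be mixed. Samples were grouped by their labels. RPKM are not counts, so log2(RPKM + 0.5) was tested with limma 3.58.1 (R 4.3.3, intensity trend) on the 12466 of 20612 genes (60.5%) with a mean of at least 0.5 RPKM. The 16 libraries entered 1 fit of 8 group means with 8 residual degrees of freedom, 19 comparisons were drawn from it, and p-values were adjusted by Benjamini-Hochberg per comparison. Fold ratios are ratios of mean RPKM, and intervals are 95% intervals. The test was checked on simulated data for Nutlin-3A against DMSO in p53+/+ cells only. The simulated noise was independent between libraries, so the check does not cover replicate differences shared between groups.

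Replicate numbers come from the labels. Between the 28 pairs of groups, the replicate differences correlated over genes with r from 0.27 to 0.78 (median 0.43), so the numbers were taken to pair the libraries, and a fit with the replicate number as a block is given wherever it changed the call of a member. Fragment recovery, promoter search and plots used Python 3.11.15. The named genes are the 6 members, CDKN1A and MDM2 as a check of the labels, up to 4 called genes with the largest change per pathway list and comparison, and the 3 genes most like each member. The cell type markers, and the pathway genes under the filter, are named as such, and CD40 was named after its values were seen. The members and lists were chosen with earlier results of these data known. The alternatives were another pseudocount, filter, scaling, variance prior or sample set, the block, and each library left out. Some values for genes outside the 6 members are not reported here.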

Additional observations from a re-analysis of the deposited data

Results flagged for a closer look

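In 3 members the response differed between the genotypes by a test of the difference itself. This was in the fit that has the replicate number as a block, and the main fit called 0 of the 6. With the block, 2 of the 6 and 17.1% of all genes were called for Nutlin-3A. For the combination, 1 of the 6 and 23.8% of all genes were called. The log2 change of BIRC3 with Nutlin-3A was larger by 0.68 in p53+/+ than in p53-/- cells (limma adjusted p = 0.051 without and 0.019 with the block). Both p53+/+ Nutlin-3A libraries exceeded both DMSO libraries, whereas in p53-/- cells the groups overlapped. TRAF2 under Nutlin-3A had a difference of -0.44 (limma adjusted p = 0.067 without and 0.022 with the block), with every Nutlin-3A library below its controls in both genotypes. The XIAP difference under the combination was -0.74 (limma adjusted p = 0.19 without and 0.0096 with the block), and it ranged from -1.05 to -0.43 as single libraries were left out.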

How the results depend on the processing

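Of 267 alternative values for counts of members called, 236 stayed within 1.5 times the reported count, 19 were lower and 12 were higher. A count that stayed at 0 was taken as within that range. For single members 434 of 506 kept their direction and call, 52 lost the call, 20 gained it and 0 reversed. The 5 calls of BIRC3 against DMSO, and those of TRAF2 against DMSO with Nutlin-3A and the combination in p53+/+ cells, held in every alternative run. With only the compared groups in the fit, 1 member was called for the combination against DMSO in p53-/- cells, 1 for it against Nutlin-3A and 0 for it against Entinostat in p53+/+ cells. With no filter on low values, 1 was called for the combination against Nutlin-3A in p53+/+ cells. With no intensity trend, 2 were called for the combination against Nutlin-3A in p53-/- cells, 1 between the genotypes under DMSO and 1 for the difference in response to Nutlin-3A. A pseudocount of 0.1 gave 1 call between the genotypes under DMSO, and a pseudocount of 1 gave 1 for the difference in response to Nutlin-3A. With the replicate block, 2 were called for the combination against Nutlin-3A in p53-/- cells, 1 between the genotypes under DMSO, 2 for the difference in response to Nutlin-3A and 1 for that to the combination; the single members whose calls it changed are given in the report. The cause of these changes was not tested.

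With single libraries left out (the lone sample of a group is assumed to vary like the other groups), the members called against DMSO in p53+/+ cells numbered 2 with Nutlin-3A, 1 to 3 with Entinostat and 3 to 4 with the combination, and in p53-/- cells 1 to 3 and 1 to 4 with the latter 2. For the combination in p53+/+ cells they numbered 1 to 2 against Nutlin-3A and 0 to 2 against Entinostat, and in p53-/- cells 1 to 2 against Nutlin-3A. Under the combination 2 to 3 differed between the genotypes, and 0 to 1 did so in the responses to Nutlin-3A and to the combination.

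Over all genes, the block raised the calls against DMSO in p53+/+ cells from 2167 to 3931 with Nutlin-3A and from 3434 to 5565 with Entinostat, and in p53-/- cells from 3520 to 5677 with Entinostat and from 3965 to 6088 with the combination. For the combination it raised them from 1851 to 3896 against Entinostat and from 4323 to 6529 against Nutlin-3A in p53+/+ cells, and from 2912 to 5141 against Nutlin-3A in p53-/- cells. Between the genotypes it raised them from 585 to 1634 under DMSO and from 469 to 1644 under Entinostat, and for the differences in response from 845 to 2126 (Nutlin-3A), from 720 to 2967 (combination) and from 0 to 4 (Entinostat). With only the compared groups, the combination called 233 genes against Entinostat and 2305 against Nutlin-3A in p53+/+ cells, 1583 against Nutlin-3A in p53-/- cells, 131 and 1688 between the genotypes under Entinostat and the combination, and 216 for the difference in response to the combination. Leaving out single libraries gave 778 to 2792 genes for Entinostat, 1031 to 1445 for Nutlin-3A and 4118 to 6290 for the combination against DMSO in p53+/+ cells, and 837 to 2988 for Entinostat and 1100 to 3633 for the combination in p53-/- cells. With quantile normalization the higher and lower calls went from 643 and 1208 to 873 and 992 for the combination against Entinostat in p53+/+ cells, and from 1696 and 1216 to 1011 and 1092 against Nutlin-3A in p53-/- cells. For the difference in response to the combination they went from 245 and 475 to 425 and 479, and to 302 and 332 with median of ratios scaling. The depth limits BIRC3 most, with 46 fragments in its lowest library.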
